A study of Mus musculus with 56 samples.

Results

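Splicing factor and hnRNP genes were followed across nucleus accumbens and prefrontal cortex of inbred mice. The genes were all those whose symbol in the array's gene table starts with Srsf, Hnrnp, Sf3, Snrp or Prpf, which gave 59 of 18182 named genes. They carried 169 probe sets with 1 gene symbol, of which 136 passed a filter on dim signal (above log2 5 on at least 13 of 54 arrays), and 58 genes were tested. Prpf4, with 2 probe sets, did not pass. A gene is described by its brightest probe set unless stated. Another 16 probe sets that the gene table gives to several genes were not used: 6 shared by Snrpn with Snurf, 3 of Hnrnpa1, and the probe sets of 4 genes (Hnrnpa3, Snrpa, Snrpd1 and Snrpd2) that had no other.

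Each array was hybridised with a pool of RNA from 3 males, aged 8 to 10 weeks, of a single strain, with 27 arrays of nucleus accumbens and 29 of prefrontal cortex. The accumbens, the ventral striatum, was taken as a punch from the slice next to that of the cortex in the same brains, so 27 strains form pairs, and MRL/MpJ and NZO/HILtJ have cortex only. The labels name the inbred strain and no other allele or treatment. Only 1 pool stood for a strain in a region, so n counts strains and an SD over strains holds the spread of pools too.

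Splicing removes introns from pre-mRNA in the nucleus. The U2 snRNP, through its SF3A and SF3B proteins, holds the branch site, Sm proteins form the core ring of most spliceosomal snRNPs, and PRPF proteins act in the tri-snRNP and in the steps that activate the spliceosome. SR proteins mostly bind exons and favour their inclusion, while hnRNP proteins coat pre-mRNA and often oppose it. Neurons splice many exons in a way of their own, and brain tissue has a high rate of alternative splicing.

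Promoter sequence of RefSeq (GRCm38.p6, the 250 bases before the annotated start) was matched by symbol to 53 of the 59 genes. The letters CCGGAAG, bound by ETS factors, were present on either strand in 17 of these 53 genes (32.1%), against 15.9% of the 7159 tested genes with a promoter and 6.91% of all 32851 promoters of that length. The palindromic NRF1 motif was present in 20.8% of the splicing genes, against 10.3% of tested genes and 3.74% of all promoters. GGGCGG, bound by Sp1, was found in 66.0% of the splicing genes and 67.0% of tested genes, against 32.7% of all promoters, and TATAAA in 9.43% of the splicing genes, 7.43% of tested genes and 12.4% of all promoters. A gene counts if any of its promoters holds the letters, and 11 of the splicing genes have several, while the shares of all promoters count single promoters. A match describes the letters and not binding. The promoters of Srsf12 (chr4:33209022-33209271, plus strand) and Srsf6 (chr2:162931258-162931507, plus strand) are shown because these SR protein genes had the largest region differences of that family, and that of Sf3b6 (chr12:4817358-4817607, plus strand) because it holds both ETS and Sp1 letters. Capitals mark any of these motifs on either strand. Srsf12 holds 1 Sp1 match and Srsf6 holds 2. Sf3b6 holds 2 ETS and 2 Sp1 matches, which do not overlap, 1 of each side by side.
Srsf12: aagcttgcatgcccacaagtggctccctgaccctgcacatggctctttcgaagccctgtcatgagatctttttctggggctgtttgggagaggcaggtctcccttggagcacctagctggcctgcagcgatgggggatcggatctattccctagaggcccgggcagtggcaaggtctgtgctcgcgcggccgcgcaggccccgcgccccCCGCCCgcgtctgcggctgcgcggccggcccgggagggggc
Srsf6: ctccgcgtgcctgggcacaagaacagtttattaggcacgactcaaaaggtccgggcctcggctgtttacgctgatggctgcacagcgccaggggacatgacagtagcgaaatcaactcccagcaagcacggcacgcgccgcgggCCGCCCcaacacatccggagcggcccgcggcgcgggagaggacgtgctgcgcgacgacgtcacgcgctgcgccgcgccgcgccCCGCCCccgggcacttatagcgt
Sf3b6: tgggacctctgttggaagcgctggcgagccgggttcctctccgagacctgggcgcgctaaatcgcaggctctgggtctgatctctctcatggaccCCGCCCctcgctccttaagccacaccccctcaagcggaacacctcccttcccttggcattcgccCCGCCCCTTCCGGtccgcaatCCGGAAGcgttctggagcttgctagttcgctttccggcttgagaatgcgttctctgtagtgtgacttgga

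The region labels held on most arrays. All 13 tested genes of a medium spiny neuron list were higher in accumbens and all 9 of a cortical excitatory neuron list were lower. The mean of the spiny neuron list was lowest on the BALB/cByJ accumbens array (log2 6.95, median of accumbens arrays 9.80) and highest in cortex on the MA/MyJ array (8.82, median of cortex arrays 4.97), so these arrays stood apart. On accumbens arrays the mean of the cortical excitatory list was highest in NOD/LtJ (5.61), SJL/J (5.38) and BUB/BnJ (5.30), with a median of 4.01. These strains were kept in every setting. The tails of the value distributions differed between regions and matched within them, as when the regions are normalized separately, so the regions and their normalization cannot be told apart. Each array was therefore centred on its median over 10684 tested features, since the median of these features was 0.12 log2 higher in accumbens as deposited. Over all probe sets, dim ones included, the deposited median difference was -0.01 log2, so the shift was seen in the kept features and not over the whole array. In tissue RNA, fewer cells of a type and less RNA per cell cannot be told apart.

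The first comparison asked which splicing genes differed between accumbens and cortex. In the limma fit with strain as a block, 36 of 58 genes (62.1%) were higher in accumbens, 11 (19%) were lower and 11 did not pass an adjusted p of 0.05. Over all 10684 features tested, 42.7% were higher and 39.8% lower. The median difference, accumbens minus cortex, was 0.19 log2 for the splicing genes and 0.02 for all features. The differences were small: the median size was 0.25 log2, against 0.36 for all features. A difference of at least 0.5 log2 was seen in 4 genes higher in accumbens (Srsf12, Prpf38b, Hnrnph3 and Srsf6) and 1 lower (Snrpn), where 18.7% and 18.9% of all features reached that size in each direction. In 12 genes accumbens was higher in all 27 strains and in 1, Hnrnpf, it was lower in all 27, against 14.3% and 15.1% of all features. As deposited, with no centring, 51.0% of all features were higher and 32.9% lower, with 40 splicing genes higher, 5 lower and a median difference of 0.28 log2. After quantile normalization of all arrays together, 41.8% of all features were higher and 40.9% lower, with 36 and 10 splicing genes. All 36 genes that were higher stayed higher under both of these scalings.

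**Figure D1:**
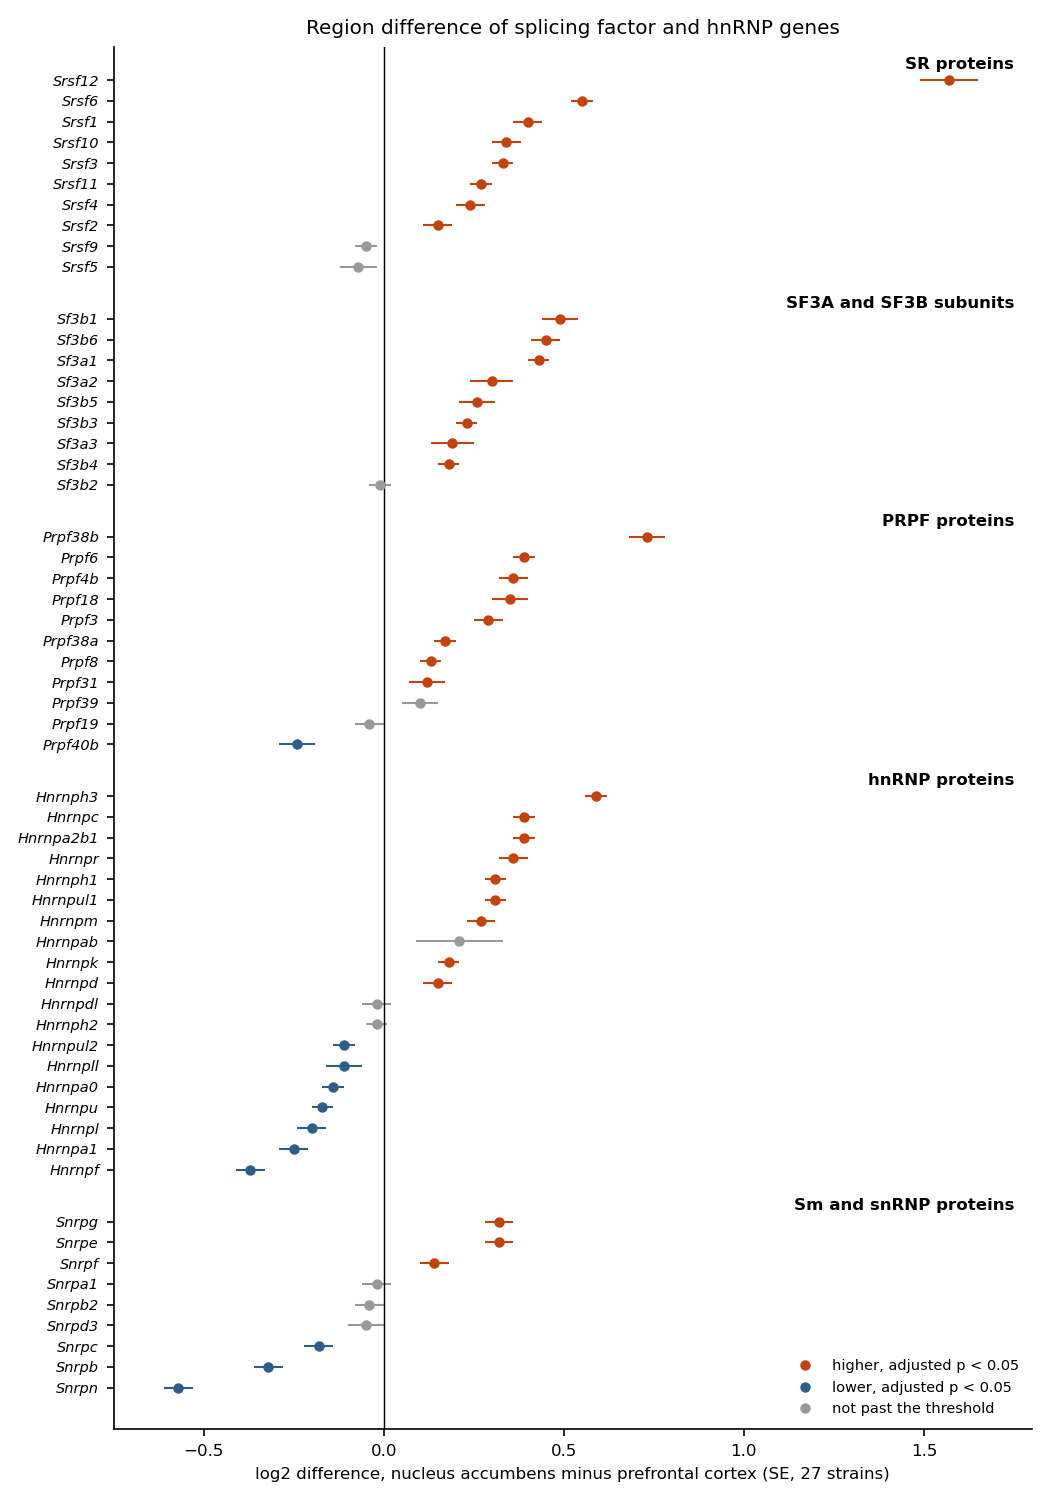
Log2 difference between nucleus accumbens and prefrontal cortex (accumbens minus cortex, x axis) of the 58 tested splicing genes, grouped by family, with bars giving the SE over 27 strains. Of the SR protein and SF3 genes 8 each were higher in accumbens and none was lower, while hnRNP genes lay on both sides of 0 and Srsf12 stood apart at 1.57.

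Cell type markers moved with the regions. All 12 tested oligodendrocyte genes were higher in accumbens, with a median difference of 1.12 log2, and the mean of the list lay between 7.74 and 10.03 on accumbens arrays and between 7.11 and 9.05 on cortex arrays. All 5 pan-neuronal genes were lower in accumbens, with a median difference of -0.50, and their mean lay between 10.72 and 11.19 on accumbens arrays and between 11.38 and 11.70 on cortex arrays. With the oligodendrocyte list mean as a covariate, 31 splicing genes were higher and 3 lower. The gap between 3′ and 5′ actin probe sets, a sign of RNA quality, was 1.68 to 2.35 log2 on accumbens arrays and 1.31 to 2.62 on cortex arrays, and with it as a covariate 35 genes were higher and 10 lower. The shares of all features called with these covariates were not counted, so these counts cannot be set against the array as a whole. The part of the other cell types in these differences was not tested.

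Among SR proteins, 8 of 10 genes were higher in accumbens, none was lower and the median difference was 0.30 log2. Srsf12, an SR protein that in human assays opposed the action of other SR proteins, had the largest difference of all 58 genes. Its log2 intensity ran between 5.98 (CBA/J) and 7.15 (DBA/2J) with a median of 6.40 in accumbens, and between 4.11 (SWR/J) and 5.53 (KK/HlJ) with a median of 4.81 in cortex. Every accumbens array lay above every paired cortex array, as in 4.56% of all features, and the cortex-only strains, at 5.26 (MRL/MpJ) and 5.09 (NZO/HILtJ), lay in the cortex range. The means were 6.43 ± 0.28 in accumbens and 4.86 ± 0.35 in cortex (SD, n = 27 each), a difference of 1.57 (SE 0.08, limma adjusted p = 1.6e-17). Since the cortex mean was below log2 5, the fold is a bound: Srsf12 was at least 2.69-fold higher in accumbens. The value rests on 1 probe set.

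Srsf6, which binds exonic enhancers, had log2 intensities of 8.49 (BALB/cByJ) to 9.47 (RIIIS/J), median 8.89, in accumbens, against 7.96 (SWR/J) to 8.68 (SJL/J), median 8.35, in cortex. It was higher in accumbens in 27 of 27 strains although the ranges overlapped, by 0.55 log2 (SE 0.03, limma adjusted p = 2.7e-15). This holds for its brightest probe set, and its other kept probe sets differed by -0.26, -0.01 and 0.04. Srsf1, the prototype of the family, ran between 10.02 (BTBR T+ tf/J) and 10.81 (RIIIS/J) in accumbens, median 10.49, and between 9.85 (BALB/cByJ) and 10.31 (RIIIS/J) in cortex, median 10.09. All 6 of its kept probe sets were higher in accumbens, by 0.10 to 0.78 log2, and the brightest by 0.40 (SE 0.04, limma adjusted p = 9.6e-12). Srsf10, which can repress splicing when dephosphorylated, was higher by 0.34 and Srsf3, the smallest SR protein, by 0.33, each on all of its kept probe sets (3 and 5). Srsf11 was higher by 0.27, Srsf4 by 0.24 and Srsf2 by 0.15, while 1 dimmer probe set each of Srsf11 (-0.37) and Srsf2 (fitted -1.48) was lower. Srsf5 (-0.07, SE 0.05) and Srsf9 (-0.05, SE 0.03) did not pass the test.

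The SF3A and SF3B genes were the most uniform family, with 8 of 9 higher in accumbens, none lower and a median difference of 0.26 log2. Sf3b1, the scaffold of SF3B at the branch site, had log2 intensities between 9.53 (BALB/cByJ) and 10.33 (SM/J) in accumbens, median 9.96, and between 9.08 (129S1/SvImJ) and 9.84 (A/J) in cortex, median 9.42. Accumbens was higher in 27 of 27 strains, by 0.49 (SE 0.05, limma adjusted p = 3.1e-11), and all 4 probe sets were higher. Sf3b6, which lies at the branch point adenosine, ran between 9.30 (SM/J) and 9.85 (BALB/cByJ) in accumbens and between 8.89 (SWR/J) and 9.33 (MA/MyJ) in cortex. It was higher in accumbens in every one of the 27 strains, with ranges that overlapped by little, and the difference was 0.45 (SE 0.04, limma adjusted p = 7.5e-13). Its other kept probe sets differed by -0.05 and -0.16. For Sf3a1, which links SF3A to the U2 snRNP, the range was 6.47 (AKR/J) to 7.19 (KK/HlJ) in accumbens and 6.11 (CE/J) to 6.71 (NZW/LacJ) in cortex. Its difference was 0.43 (SE 0.03, limma adjusted p = 4.6e-13), on 1 kept probe set. Sf3a2, Sf3b5, Sf3b3, Sf3a3 and Sf3b4 were higher by 0.18 to 0.30, and Sf3b2 differed by -0.01 on its brightest probe set (SE 0.03).

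Of 11 tested PRPF genes 8 were higher in accumbens and 1, Prpf40b, which associates with the U1 snRNP, was lower by 0.24 on the log2 scale (difference -0.24, SE 0.05). Prpf38b, which has a domain of the yeast factor Prp38, ran between 6.59 (BALB/cByJ) and 7.60 (SM/J) in accumbens, median 7.30, and between 6.06 (C3H/HeJ) and 7.10 (RIIIS/J) in cortex, median 6.51. It was higher in accumbens in 27 of 27 strains, by 0.73 (SE 0.05, limma adjusted p = 1.3e-13), and by 0.27 on its other probe set. In BALB/cByJ, whose accumbens array stood apart, it had 6.59 in accumbens and 6.55 in cortex, and without the 5 strains whose arrays stood apart (MA/MyJ, BALB/cByJ, CE/J, NON/LtJ and WSB/EiJ) the difference was 0.79. Prpf6, which bridges the U4/U6 and U5 snRNPs, lay between 7.33 (SJL/J) and 7.92 (BALB/cByJ) in accumbens and between 7.02 (KK/HlJ) and 7.64 (SWR/J) in cortex. Its difference was 0.39 (SE 0.03, limma adjusted p = 6.7e-12). Prpf8, the central protein of the catalytic core, was higher by 0.13, and Prpf18, Prpf4b, Prpf38a and Prpf31 by 0.12 to 0.36. Prpf3 was dim in both regions (means 5.0 in accumbens and 4.71 in cortex). Prpf19 (-0.04) and Prpf39 (0.10) did not pass the test.

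**Figure D2:**
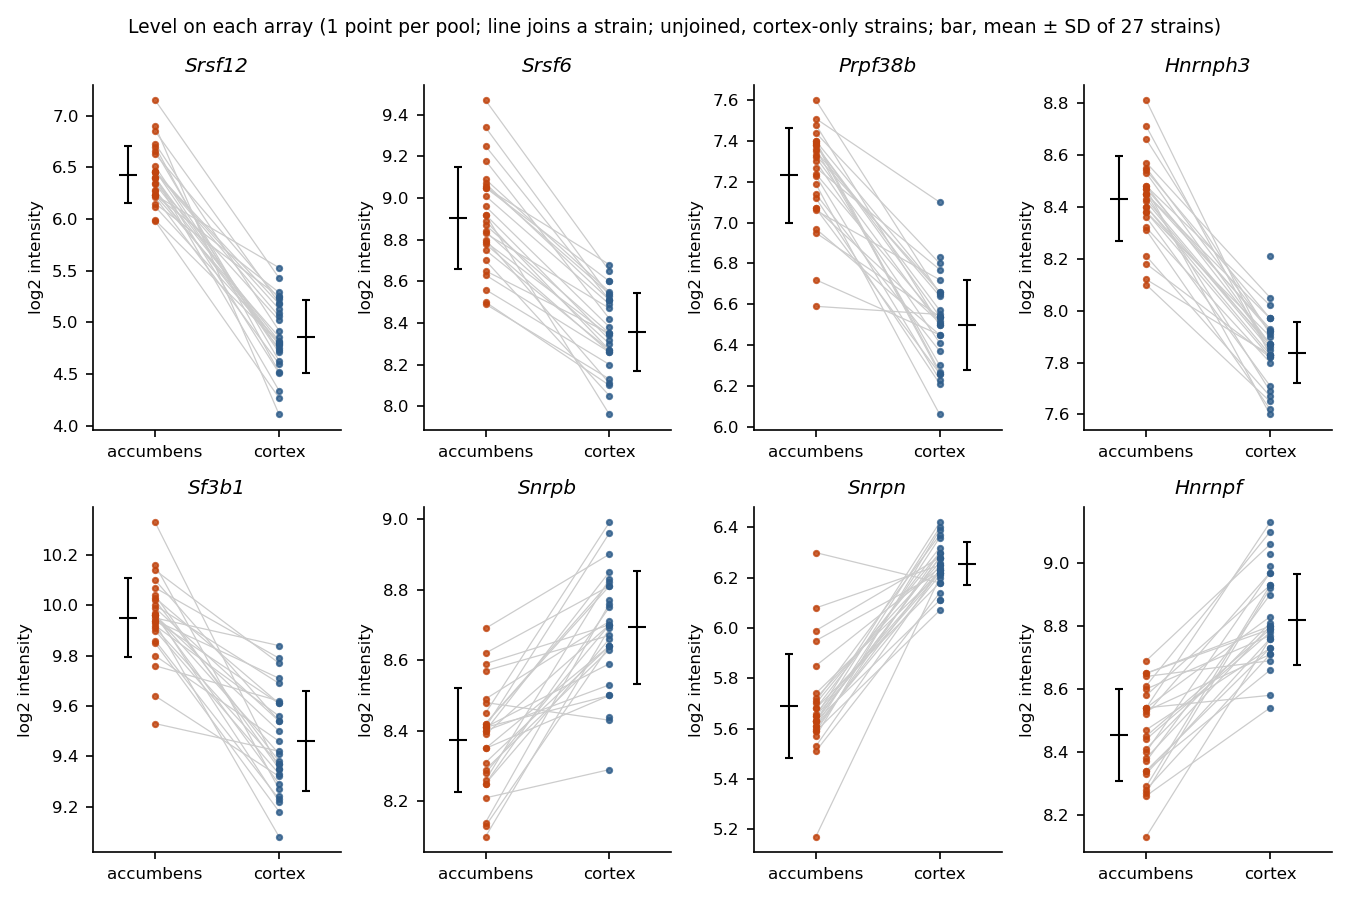
Log2 intensity of 8 splicing genes on each array, accumbens left and cortex right, with grey lines joining the 2 regions of a strain and bars giving mean ± SD of 27 strains; unjoined cortex points are MRL/MpJ and NZO/HILtJ. Srsf12 had no overlap between regions, and Snrpb, Snrpn and Hnrnpf were lower in accumbens in nearly every strain.

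The hnRNP genes went both ways: 9 of 19 were higher in accumbens, 7 were lower and the median difference was 0.15 log2. Hnrnph3, of the H and F family that binds G-rich RNA, ran between 8.10 (NOD/LtJ) and 8.81 (NZW/LacJ) in accumbens, median 8.45, and between 7.60 (I/LnJ) and 8.05 (MA/MyJ) in cortex, median 7.85. The paired groups did not overlap, while the cortex array of NZO/HILtJ, a strain with no accumbens array, reached 8.21. The difference was 0.59 (SE 0.03, limma adjusted p = 8.9e-17), 1.51-fold, on 1 probe set. Its relative Hnrnph1 was also higher, by 0.31, while Hnrnph2 differed by -0.02 (SE 0.03) and the brightest probe set of Hnrnpf was lower.

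Hnrnpc, which binds uridine tracts and forms the core of the hnRNP particle, had log2 intensities of 9.49 (129S1/SvImJ) to 10.15 (WSB/EiJ) in accumbens and 9.09 (129S1/SvImJ) to 9.68 (PL/J) in cortex. It was higher in accumbens in 27 of 27 strains by 0.39 (SE 0.03, limma adjusted p = 1.7e-13), and by 0.58 on its other probe set. Hnrnpa2b1, known for carrying RNA in oligodendrocytes and neurons, ran between 10.68 (BALB/cByJ) and 11.17 (C3H/HeJ) in accumbens, and between 10.37 (BALB/cByJ) and 10.84 (DBA/2J) in cortex. Its brightest probe set was higher by 0.39 (SE 0.03, limma adjusted p = 2.6e-13) and the other 3 by 0.72, 0.76 and 0.85. Hnrnpr was higher by 0.36, Hnrnpul1 by 0.31, Hnrnpm by 0.27, Hnrnpk by 0.18 and Hnrnpd by 0.15. On the lower side were Hnrnpf (-0.37), Hnrnpa1 (-0.25), Hnrnpl (-0.20), Hnrnpu (-0.17), Hnrnpa0 (-0.14), Hnrnpul2 (-0.11) and Hnrnpll (-0.11). The brightest probe set of Hnrnpab varied widely between arrays and its difference of 0.21 (SE 0.12) did not pass the test, while its 4 other kept probe sets were higher, by 0.15 to 0.48. Hnrnpdl likewise differed by -0.02 (SE 0.04) on its brightest probe set and was higher on the 6 others, by 0.11 to 0.90, with no overlap between regions on the one at 0.90.

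The Sm and snRNP proteins were split, with 3 of 9 genes higher in accumbens, 3 lower and a median difference of -0.04 log2. Snrpn encodes SmN, the Sm protein that takes the place of SmB in neurons, and is expressed from the paternal allele. Its one usable probe set ran between 5.17 (SM/J) and 6.30 (BALB/cByJ) in accumbens, median 5.65, and between 6.07 (129S1/SvImJ) and 6.42 (DBA/2J) in cortex, median 6.25. Accumbens was lower in 26 of 27 strains, by 0.57 on the log2 scale (difference -0.57, SE 0.04, limma adjusted p = 5.7e-13), 1.48-fold, with the exception of BALB/cByJ, whose accumbens array stood apart. The 6 probe sets shared with Snurf were not used, so this value is of 1 dim probe set.

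Snrpb, which encodes SmB, ran between 8.10 (SM/J) and 8.69 (BALB/cByJ) in accumbens and between 8.29 (DBA/2J) and 8.99 (PL/J) in cortex. Both of its probe sets were lower in accumbens, the brightest by 0.32 on the log2 scale (difference -0.32, SE 0.04, limma adjusted p = 4.4e-09) and the other by 0.41 (difference -0.41). So both Snrpb probe sets and the 1 usable, dim Snrpn probe set were lower in accumbens on these arrays. Of the other Sm proteins measured, Snrpg and Snrpe were each higher by 0.32 and Snrpf by 0.14. Snrpd3 differed by -0.05 (SE 0.05) on its brightest probe set and was lower on 1 of its 2 others (difference -0.21, SE 0.04). Snrpc, of the U1 snRNP, was lower (difference -0.18), and the U2 proteins Snrpa1 (-0.02) and Snrpb2 (-0.04) did not pass the test.

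Probe sets of a gene often disagreed. Of 35 genes with at least 2 kept probe sets, 13 were higher in accumbens on all of them and 2 were lower on all. Another 11 genes had probe sets called in opposite directions: Hnrnpa1, Hnrnpf, Hnrnpk, Hnrnpr, Hnrnpu, Prpf4b, Sf3b2, Sf3b6, Srsf11, Srsf2 and Srsf6. Such agreement was not counted over all genes, so these gene counts cannot be set against the array as a whole. Counted by probe set, 86 of 136 were higher and 28 lower, against 43.7% and 38.2% of 16056 probe sets in all. Probe sets can lie in different exons or 3′ ends, and some are of a type prone to cross-hybridisation, as were the brightest of 12 genes.

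Srsf2 had probe sets that went opposite ways. The dimmest of its 3 kept probe sets ran between 4.32 and 5.26 in accumbens, median 4.71, and between 5.69 and 6.56 in cortex, median 6.18. Every accumbens array lay below every paired cortex array, as 6.5% of all features did, and the probe set was at least 2.26-fold lower in accumbens, a bound because its accumbens mean of 4.70 was below log2 5 (fitted difference -1.48, SE 0.03, limma adjusted p = 2.5e-26 over all probe sets). The brightest Srsf2 probe set went the other way, between 8.96 and 9.53 in accumbens and between 8.76 and 9.43 in cortex, a difference of 0.15 (SE 0.04). Hnrnpf had 4 kept probe sets, at -0.37, 0.77, -0.21 and 0.16, the first 2 both of the type prone to cross-hybridisation. That at 0.77 did not overlap between regions, with 8.18 to 8.54 in accumbens and 7.40 to 7.88 in cortex. So the call for Hnrnpf depends on the probe set, and without the cross-hybridising type it was higher by 0.15.

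Among the other genes of this kind, the 4 probe sets of Srsf6 differed by 0.55, -0.26, -0.01 and 0.04 log2. Hnrnpr had 1.28, 0.51 and 0.36 on 3 probe sets and -0.17 on the fourth, which was dim. Sf3b2, with -0.01 on its brightest, had 0.94, 0.46 and 0.23 on others and -0.11 on the fifth. For Hnrnpu, a scaffold protein of the nucleus, the values were -0.17, -0.16, -0.41 and -0.78 on 4 probe sets and 0.19 on the fifth. Hnrnpk, which binds C-rich RNA, had 0.18, 0.12 and 0.05 and, on a cross-hybridising probe set, -0.41. For Prpf4b, a kinase of the tri-snRNP, 4 probe sets lay between 0.14 and 0.36 and 1 at -0.10. Srsf11 had 0.27, 0.31 and -0.37, Sf3b6 had 0.45, -0.05 and -0.16, and Hnrnpa1 had -0.25 and, without cross-hybridisation in its type, 0.11. In 10 of these 11 genes the brightest probe set was itself past the threshold, and in Sf3b2 it was not.

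**Figure D3:**
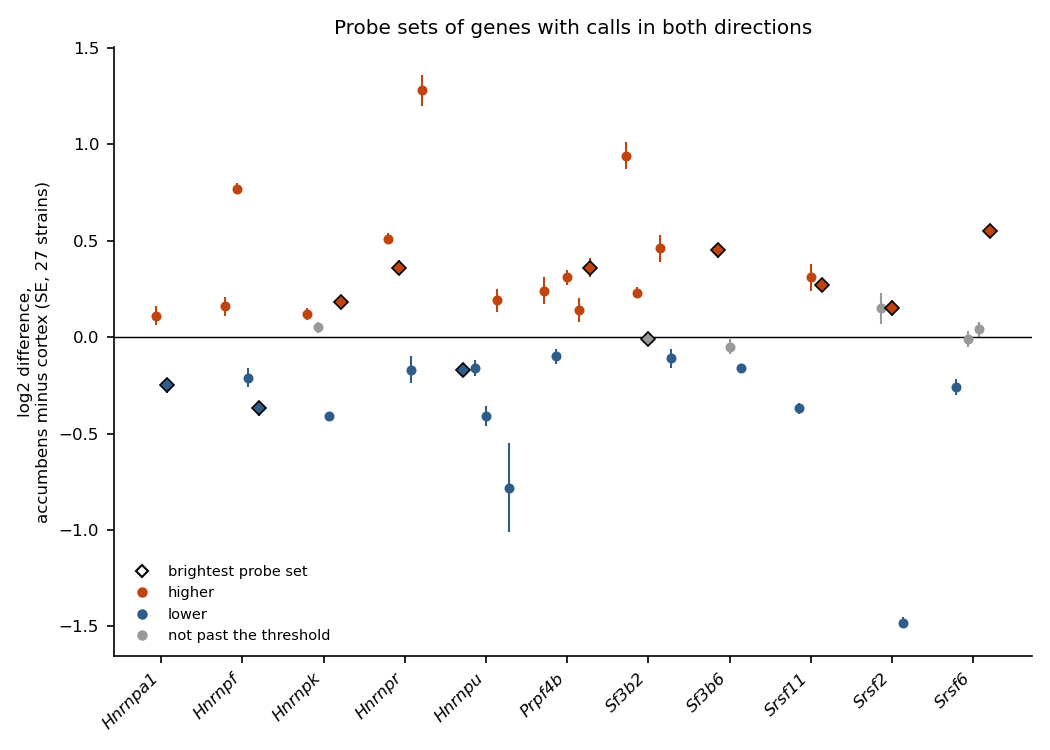
Log2 difference (accumbens minus cortex, y axis) of every kept probe set of the 11 genes with calls in both directions, with bars giving the SE over 27 strains and diamonds marking the brightest. The Hnrnpr probe set at 1.28 and the Srsf2 probe set at -1.48, whose accumbens mean was below log2 5, are drawn at the fitted values.

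The other comparison asked which splicing genes differed between strains, with the 2 regions of a strain as its measures. The strain term passed an adjusted p of 0.05 in 11 of 58 genes (19%), against 20.2% of all features, so the share was that of the array as a whole. A span of at least 1 log2 between the highest and the lowest strain mean, beside the test, was reached by 2 genes, Hnrnpl and Prpf31, against 12.5% of all features. Strain means had a median SD of 0.12 log2 in the splicing genes and 0.18 over the array. In 6 genes (Hnrnpc, Hnrnpl, Hnrnpm, Snrpa1, Srsf10 and Srsf6) the call was made under every setting tried.

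Hnrnpl, which binds CA repeats and has 1 kept probe set, was the most strain-dependent member by brightest probe set. SM/J was highest, at 8.25 in accumbens and 8.44 in cortex, and AKR/J lowest, at 7.05 in both regions, so strain means of 8.34 and 7.05 spanned 1.30 log2 (limma moderated F, adjusted p = 8.6e-07). I/LnJ (8.15) followed SM/J, and NOD/LtJ (7.15) lay next to AKR/J. The strain levels of the 2 regions had r = 0.81 over 27 strains, as a description. The regions also differed, by -0.20 (SE 0.04).

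Snrpa1, the U2-A′ protein, was highest in 129S1/SvImJ, at 8.43 in accumbens and 8.47 in cortex, and lowest in I/LnJ, at 7.38 in accumbens and 7.65 in cortex. Its strain means spanned 0.93 (limma adjusted p = 0.00068), and its 2 other probe sets, also strain-dependent, spanned 0.94 and 0.82 with strain means that had r = 0.83 and 0.85 with the brightest. So 3 probe sets gave like strain orders, though the 2 others are of the type prone to cross-hybridisation. Their ends differed in part: that with a span of 0.94 was highest in MA/MyJ (7.31), and that with 0.82 was lowest in SM/J (7.09). Srsf10 was highest in MA/MyJ (7.94 in accumbens, 7.69 in cortex) and lowest in AKR/J (7.06 in accumbens, 6.99 in cortex), a span of 0.79 (limma adjusted p = 0.00071), though the MA/MyJ cortex array is the one that stood apart in spiny neuron genes. RIIIS/J came next (7.95 in accumbens, 7.56 in cortex), and without the 5 strains whose arrays stood apart the span was 0.73 (limma adjusted p = 0.0024). The strain means had r = 0.38 and 0.36 between its brightest and its other probe sets.

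Srsf6 was highest in RIIIS/J (9.47 in accumbens, 8.65 in cortex) and lowest in BTBR T+ tf/J (8.50 in accumbens, 8.10 in cortex), a span of 0.76 (limma adjusted p = 0.0003). BALB/cByJ (8.31) was within 0.01 of the lowest strain mean. The strain means of its 3 other probe sets ran against it, with r of -0.27, -0.47 and -0.60. Hnrnpm, which binds GU-rich RNA, was highest in NZW/LacJ (7.94 in accumbens, 7.57 in cortex) and lowest in BALB/cByJ (7.17 in accumbens, 6.87 in cortex), a span of 0.74 (limma adjusted p = 0.0034). Hnrnpm has 1 kept probe set.

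Prpf31, a U4/U6 protein mutated in a form of human retinitis pigmentosa, was low in 1 strain. NOD/LtJ was highest at 7.13 in accumbens and 7.31 in cortex, C58/J was the second lowest at 6.48 in accumbens and 6.67 in cortex, and C57BL/6J had 6.12 in accumbens and 6.20 in cortex. The strain means of 7.22 in NOD/LtJ and 6.16 in C57BL/6J spanned 1.06 (limma adjusted p = 0.031). The other Prpf31 probe set, dim at means of 5.18 in accumbens and 5.13 in cortex, did not pass the strain test and had r = 0.01 with this one.

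The remaining strain-dependent genes spanned 0.47 to 0.63 log2. Hnrnpc was highest in WSB/EiJ (10.15 in accumbens, 9.59 in cortex) and lowest in 129S1/SvImJ (9.49 in accumbens, 9.09 in cortex), with an adjusted p of 0.0063 in limma, and its other probe set, which had r = -0.19 with it, was highest in RIIIS/J. Prpf38a was highest in CBA/J and lowest in BALB/cByJ, Sf3a1 highest in KK/HlJ and lowest in AKR/J, Sf3b2 highest in C3H/HeJ and lowest in BALB/cByJ, and Srsf11 highest in NZW/LacJ and lowest in BALB/cByJ. Their adjusted p in limma was between 0.021 and 0.049. Prpf38a and Sf3a1 each have 1 kept probe set. For Sf3b2, BALB/cByJ had 8.90 in accumbens, on the array that stood apart, and 9.28 in cortex, where the median was 9.34. The brightest Sf3b2 probe set is of the type prone to cross-hybridisation, and the other kept probe sets of the gene did not pass the strain test. Srsf11 passed 0.05 by little and missed it in 11 of the settings tried. Hnrnpab had a span of 1.4 but did not pass the strain test (adjusted p = 0.50 in limma), with r = 0.01 between regions. Both dimmer probe sets of Snrpd3 were strain-dependent and lowest in NZW/LacJ (4.81 and 5.15), with spans of 1.79 and 1.59 log2, while its brightest was not strain-dependent.

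**Figure D4:**
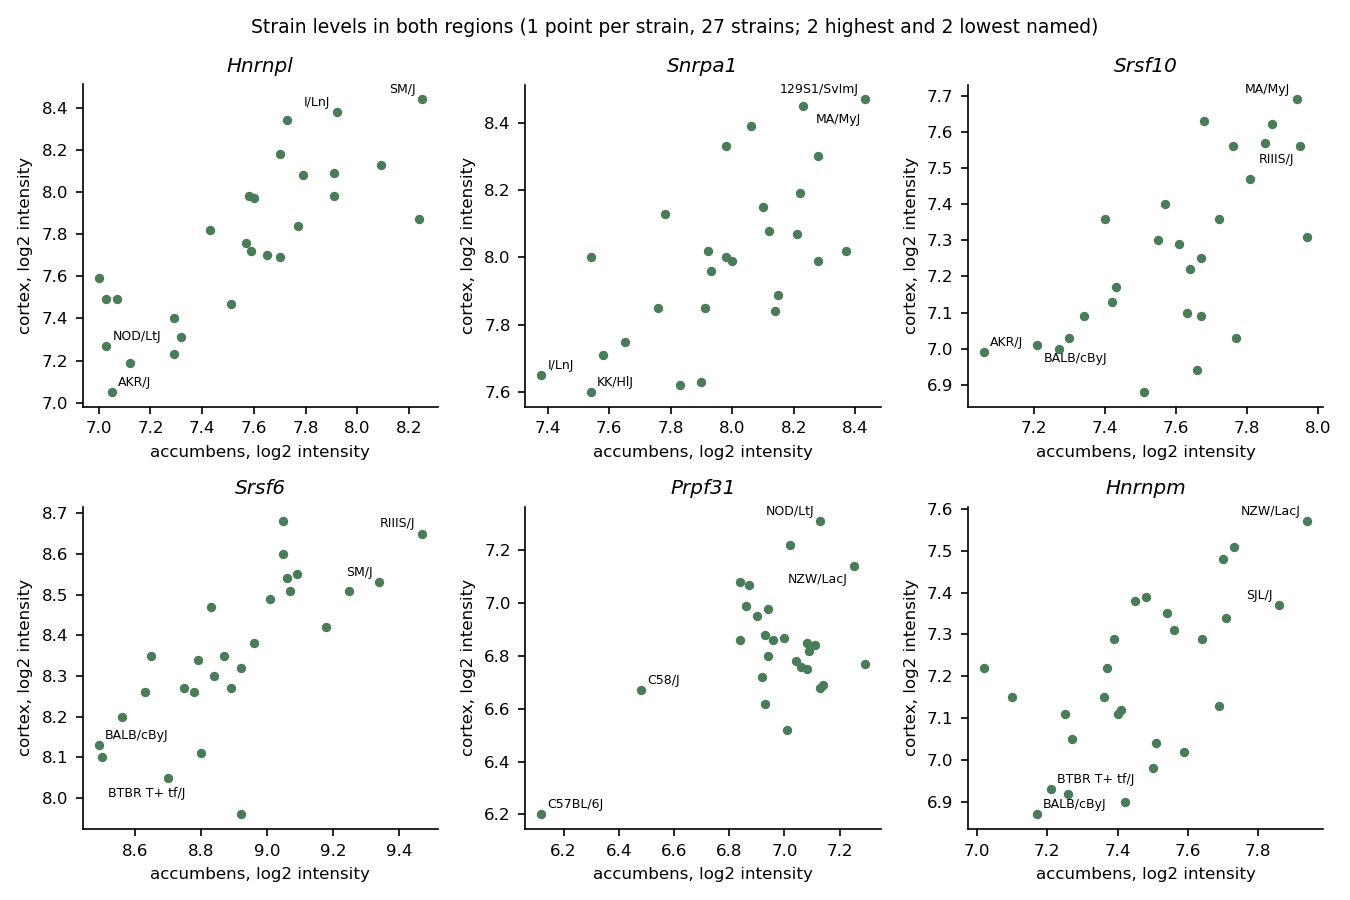
Log2 intensity of 6 strain-dependent genes in accumbens (x axis) against cortex (y axis), 1 point per strain for 27 strains, with the 2 highest and the 2 lowest strain means named. SM/J and AKR/J stand at the ends for Hnrnpl, and C57BL/6J lies below all other strains in both regions for Prpf31.

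Single strains held many of the extremes. BALB/cByJ had the lowest strain mean for 17 of 58 genes (29.3%), against 14.9% of all features, and the highest for 6 (10.3%), against 15.2% of all features. Its mean over the splicing genes was the lowest of the accumbens arrays, at 8.44 with a median of 8.59, and of the cortex arrays, at 8.36 with a median of 8.41. Its accumbens array was the one that stood apart in spiny neuron genes. RIIIS/J had the highest strain mean for 7 genes (12.1%), against 2.99% of all features, among them Srsf1, Srsf6, Hnrnph1 and Prpf38b, and the lowest for none.

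The genes did not move as one block across strains. With the region means removed, the first principal component held 19% of the variance over 54 arrays, and the median correlation over 1653 gene pairs was 0.06, with the 10th and 90th percentiles at -0.23 and 0.38. These values share the array and its centring and are descriptions.

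Other genes of the splicing pathway were counted from 6 lists. Of 128 tested, 60 were higher in accumbens, 35 were lower and 22 were strain-dependent, with a median difference of 0.08 log2. These shares of 46.9%, 27.3% and 17.2% stand beside 42.7% higher, 39.8% lower and 20.2% strain-dependent over all features. Neuronal and tissue splicing regulators were split, with 12 of 28 higher (42.9%) and 11 lower (39.3%), near the shares of all features, and held the largest differences of the genes named here. Khdrbs3, a STAR protein that regulates neurexin splicing in mouse, averaged 7.26 in accumbens and 10.10 in cortex, 7.13-fold lower in accumbens (difference -2.83, SE 0.08, limma adjusted p = 4.4e-24), and lower in all 27 strains. Its paralogue Khdrbs2 went the other way, with a mean of 6.1 in accumbens and 4.2 in cortex. As the cortex mean was below log2 5, Khdrbs2 was at least 2.15-fold higher in accumbens. The neuronal RNA-binding proteins Elavl4 (-2.64) and Elavl2 (-1.41) were lower in accumbens, and Celf6 (1.34) and Mbnl1 (0.91) were higher.

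Of 16 SR-related proteins and SR protein kinases, 7 were higher (43.8%, near the 42.7% of all features) and 4 lower (25%, against 39.8%). Tra2b, which binds GAA-rich exonic enhancers, was higher by 0.78, the kinase Clk1 by 0.77 and Srrm1 by 0.62, and Rnps1 (-0.49), Clk3 (-0.47) and the kinase Srpk2 (-0.42) were lower. Clk4, a kinase of SR proteins, was strain-dependent, highest in RIIIS/J (7.50) and lowest in CE/J (6.01, limma adjusted p = 2.1e-05). Clk1 was also highest in RIIIS/J, at 9.81, with NOD/LtJ lowest at 9.10.

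Among snRNP factors the counts are given by list, beside 42.7% higher and 39.8% lower over all features. Other snRNP, tri-snRNP and Prpf19-associated genes had 20 of 34 higher (58.8%) and 6 lower (17.6%), with Snrnp48 (0.62), Cwc22 (0.58) and Snrnp40 (0.51) higher and Snrnp25 (-0.57), Zmat2 (-0.52) and Usp39 (-0.51) lower. U2AF and branch site proteins had 4 of 12 higher (33.3%) and 2 lower (16.7%). LSm and SMN complex genes had 5 of 13 higher (38.5%) and 4 lower (30.8%). Cwc22, which joins the exon junction complex to the spliceosome, had the largest strain spread of these lists after Sfpq, with 9.88 in WSB/EiJ and 5.47 in BUB/BnJ (limma adjusted p = 5.9e-13).

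Of 25 FET, RBM and other nuclear RNA-binding proteins, 12 were higher in accumbens (48%) and 8 lower (32%), against 42.7% and 39.8% of all features. Rbmx, encoding hnRNP G, was higher by 1.03 (SE 0.05, limma adjusted p = 4.7e-18) and Sfpq, a paraspeckle protein, by 0.94, while Alyref (-0.54) and the cold-inducible Cirbp (-0.42) were lower. Sfpq was strain-dependent through RIIIS/J, with a strain mean of 3.62, below the filter level, against 10.01 in SWR/J, the highest (limma adjusted p = 1.6e-12).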

How the data were processed

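RNA was measured on 1-colour oligonucleotide arrays. The deposited values are linear intensities per probe set, an intensity made by the authors with GCRMA (background correction, quantile normalization and summary of probes) per the submitters' processing notes, with a version not given in the sources used here. The regions appear to have been normalized separately, since rank values in the tails differ between them. Of 45015 probe sets, 34880 had 1 symbol in the platform's gene table, and those with several were left out.

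Values were taken as log2, without a pseudocount, and centred on each array's median over the tested features. A probe set was kept above log2 5 on at least 13 of 54 arrays, and the brightest per gene gave 10684 features. limma 3.58.1 in R 4.3.3 (lmFit, eBayes) tested region with strain as a block, and strain by the moderated F of 26 coefficients, with Benjamini-Hochberg adjustment over all features and a threshold of 0.05. The design text takes both regions from the same animals, and the deviations of same-strain arrays correlated in all 27 pairs (r 0.15 to 0.64), with a median of -0.02 between different strains. The fits were tested on simulated data. Summaries used Python 3.11.15 with numpy 2.4.6 and pandas 2.3.3.

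Full values were given to the 12 genes with the largest region difference and up to 12 with the largest SD of strain means past the threshold, genes with opposite probe set calls, and Snrpb and Snrpn, and in the other pathway lists to up to 3 genes per direction and for strain. The genes, lists and rules were chosen with earlier results of these data known. A fold against a mean below log2 5 is a bound from the other mean and log2 5. Precision is limited by the number of arrays, and 1 pool per strain and region leaves the strain by region spread as the error. Scanner files were not used here.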

Additional observations from a re-analysis of the deposited data

How the results depend on the processing

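Under 14 settings besides the one reported, 23 of the 36 genes higher in accumbens and 1 of the 11 lower, Snrpb, kept their call in every one. A gene that some setting did not test is not counted among these. The filter at log2 7 left 50 genes tested, and leaving out cross-hybridising probe sets left 56. With that filter 30 genes were higher and 8 lower, each with the call it had in the reported fit. With values as deposited 40 genes were higher with a median of 0.28 log2, the lower count was 5, and 7 genes were higher and 0 lower by at least 0.5 log2. With no filter on dim probe sets these were 4, 16 and 0, with 47 of 59 genes higher and a median difference of 0.35 log2 in place of 0.19. The share of all features called in that setting was not counted, and their median difference was 0.05. Counting every kept probe set gave 86 higher and 28 lower, 21 and 3 by at least 0.5 log2, and 24 strain-dependent. The count lower by at least 0.5 log2 was 0 with a filter at log2 7, 0 with a pseudocount of 16, and 3 without probe sets prone to cross-hybridisation. The oligodendrocyte covariate left 3 lower, and at a threshold of 0.01 the strain term kept 6. Without the replicate block of strain, 35 genes were higher and 10 lower, with Hnrnpl (adjusted p = 0.067 in limma) and Prpf31 (0.063) past the threshold only with it. Over all features, 41.8% were higher and 40.9% lower after quantile normalization. Shares of all features higher and lower were also counted for values as deposited and for every kept probe set, given above. For the other settings they were not counted. Shares at 0.5 log2 or for strain were counted in the reported fit only. The setting with no filter also changed the centring, since each array was then centred on the median over the unfiltered features. Differences of single genes moved up with it: Hnrnpc from 0.39 to 0.55, Hnrnph3 from 0.59 to 0.76 and Hnrnpl from -0.20 to -0.04. With no filter, 1 gene was called in the direction opposite to its call in the reported fit. The cause of the other changes was not tested.

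Without cross-hybridising probe sets the region difference turned in Hnrnpa1 (0.10), Hnrnpf (0.15) and Srsf2 (-1.49), since another probe set stood for the gene. The near-zero difference of Sf3b2 was 0.09 as deposited, 0.01 after quantile normalization, with the filter at log2 7 and without 5 strains, 0.15 with no filter, 0.22 without cross-hybridising probe sets, 0.03 with the oligodendrocyte covariate and 0 with the pseudocount. That of Snrpa1 was 0.07 as deposited, 0.14 with no filter, and 0 with the oligodendrocyte covariate and without 5 strains. Dim probe sets have only a rough level.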
